A study of Mus musculus with 8 samples.

Results

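Transcripts of macrophages, neutrophils, lymphocytes and antigen-presenting cells were measured in mouse granulosa cell preparations taken shortly before ovulation. The 34 marker genes were chosen by name as known markers, with earlier results of these data known, and all 34 of them were found among the 51886 gene symbols measured. They comprised 10 macrophage surface and lineage genes, 3 complement C1q genes, 5 phagocyte signalling and lysosomal genes, 4 genes of leukocytes in general, 4 MHC class II genes, 4 lymphocyte genes and 4 neutrophil genes. The study compared PGR-A KO mice, which lack the A isoform of the progesterone receptor, with WT mice of the same strain. Each genotype had 4 RNA-seq libraries, and each library pooled peri-ovulatory granulosa cells of 2 to 3 mice. All mice were 21 to 27 days old and had the same hormones, 5 IU of eCG to grow follicles and, 46 h later, 5 IU of hCG to trigger ovulation, and cells were collected 8 h after hCG. The labels name a knockout of PGR-A and no Cre or transgene, and do not say whether libraries with equal numbers shared a litter or a day. P-values therefore measure the spread between pools of mice.

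Granulosa cells line the ovarian follicle and surround the oocyte. Before ovulation the follicle wall holds blood vessels and resident macrophages, and neutrophils and monocytes enter the ovary after the ovulatory hormone surge. Macrophages take up debris through receptors and lysosomes and secrete C1q, the starter of the classical complement pathway. Antigen-presenting cells load peptides onto MHC class II proteins, and neutrophils carry S100A8 and S100A9, calcium-binding proteins of their cytosol. A granulosa cell collection can carry such cells along.

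Promoters of 6 members are shown as examples of 2 known regulatory systems, and they were picked for holding a match; those of Cd68, Ctss and C1qc, among others, held no match to the PU.1 core in the same window. MHC class II genes are switched on through an X box and a Y box that bind RFX and NF-Y proteins and recruit the coactivator CIITA, and many myeloid genes are bound by the transcription factor PU.1. The sequences are the 150 bases before the RefSeq start (build GRCm38.p6), 5′ to 3′ on the strand of the gene. In the class II promoters capitals mark GCAACT, letters of the X box that were picked after these sequences were seen, and CCAAT, the core of the Y box, read on either strand (CCAAT or ATTGG).
H2-Aa (chr17:34287824-34287973, minus strand): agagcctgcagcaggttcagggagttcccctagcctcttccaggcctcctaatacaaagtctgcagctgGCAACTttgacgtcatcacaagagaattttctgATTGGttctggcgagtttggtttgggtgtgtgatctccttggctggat
H2-Eb1 (chr17:34305717-34305866, plus strand): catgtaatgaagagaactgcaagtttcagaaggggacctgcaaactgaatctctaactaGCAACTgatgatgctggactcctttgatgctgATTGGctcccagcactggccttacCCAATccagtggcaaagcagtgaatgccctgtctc
In the other 4 promoters capitals mark GAGGAA, the PU.1 core, read on either strand (GAGGAA or TTCCTC).
C1qb (chr4:136886201-136886350, minus strand): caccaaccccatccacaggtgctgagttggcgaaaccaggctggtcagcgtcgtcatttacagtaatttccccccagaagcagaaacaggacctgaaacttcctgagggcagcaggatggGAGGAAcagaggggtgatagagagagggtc
Itgam (chr7:128062490-128062639, plus strand): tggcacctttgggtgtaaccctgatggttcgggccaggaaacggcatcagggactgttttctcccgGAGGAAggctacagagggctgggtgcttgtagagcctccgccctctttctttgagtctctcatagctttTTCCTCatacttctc
Pf4 (chr5:90772285-90772434, plus strand): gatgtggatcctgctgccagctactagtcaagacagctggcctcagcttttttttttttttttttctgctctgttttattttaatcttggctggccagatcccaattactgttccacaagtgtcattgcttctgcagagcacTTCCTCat
Fyb (chr15:6579697-6579846, plus strand): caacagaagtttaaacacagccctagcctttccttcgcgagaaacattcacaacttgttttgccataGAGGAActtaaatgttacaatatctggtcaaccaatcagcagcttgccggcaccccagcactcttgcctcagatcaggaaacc
The GCAACT match lay 75 bases before the start in H2-Aa and 85 in H2-Eb1, with a CCAAT match nearer to the start in both, at 43 bases in H2-Aa and at 54 and 30 bases in H2-Eb1. The GAGGAA match lay 24 bases before the start in C1qb, 78 and 9 in Itgam, 2 in Pf4 and 77 in Fyb. The Fyb window belongs to a RefSeq start that lies inside the longer GENCODE span of the gene.

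Motif matches were counted on both strands in the 250 bases before each RefSeq start, in the 29 promoters found for 26 of the 34 members and in all 32851 promoters. GAGGAA was in 15 of the 29 member promoters (51.7%) and in 23.3% of all promoters. The steroid receptor element core ACANNNTGT was in 4 (13.8%, those of Ctss, Fyb, Lyz2 and Timd4) against 5.84% of all, and GCAACT in 4 (13.8%) against 9.01%. CCAAT was in 10 (34.5%) against 33.8%, the TATA box TATAAA in 4 (13.8%) against 12.4%, and the C/EBP-type TTNNGCAA, whose end can overlap the start of GCAACT, in 3 (10.3%) against 9.56%. A match describes the letters in the window and does not show binding.

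The 34 members together made up 0.0122% to 0.0258% of TPM, the deposited unit, which is a transcript's share per length scaled to a fixed total. Their sum was 144.1, 139.7, 250.7 and 121.9 TPM in PGR-A KO replicates 1 to 4, and 168.1, 183.2, 173.7 and 257.5 TPM in the WT replicates. The granulosa product Inha, which encodes the inhibin alpha subunit, stood at 2994 to 4645 TPM in the same libraries, so the labelled cell type was present throughout. The sums of PGR-A KO replicate 3 and WT replicate 4 lay above those of the other 6 libraries, 1 of them in each genotype.

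The 2 highest libraries were PGR-A KO replicate 3 and, in WT, replicate 4 for 20 of the 34 members (58.8%), while the same 2 were highest for 660 of all 14472 genes tested (4.56%). The single highest library was PGR-A KO replicate 3 for 10 members and WT replicate 4 for 15, and the lowest was PGR-A KO replicate 4 for 18 members. Among the members the gap was widest in the neutrophil genes S100a8 and S100a9. Over the median of the other 6 libraries, S100a8 was 10.3-fold higher in PGR-A KO replicate 3 and 12.4-fold in WT replicate 4. For S100a9 these values were 10.8-fold and 8.65-fold. The neutrophil member Camp was not raised, at 0.698-fold and 0.953-fold. The monocyte and macrophage gene Cd14 (2.54-fold and 2.81-fold) and Itgam, which neutrophils also carry (2.44-fold and 2.24-fold), were also higher in both. So were the macrophage members Cbr2 (2.198-fold and 2.189-fold), Csf1r (1.497-fold and 1.635-fold) and Timd4 (1.887-fold and 1.223-fold). Each of these lay above all of the other 6 libraries in both. The macrophage members Cd68, Cx3cr1, Cd163, Pf4, Mrc1 and Adgre1 did not. Of these, Pf4, Mrc1 and Adgre1 were at 2.12-fold, 1.18-fold and 1.96-fold in PGR-A KO replicate 3. In WT replicate 4 Pf4, Mrc1 and Adgre1 were at 0.945-fold, 0.970-fold and 1.08-fold. The erythroid globin Hbb-bs did not share this order, with its highest value, 4507 TPM, in WT replicate 3. What sets the 2 libraries apart was not tested, and member values are given below for each library.

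**Figure D1:**
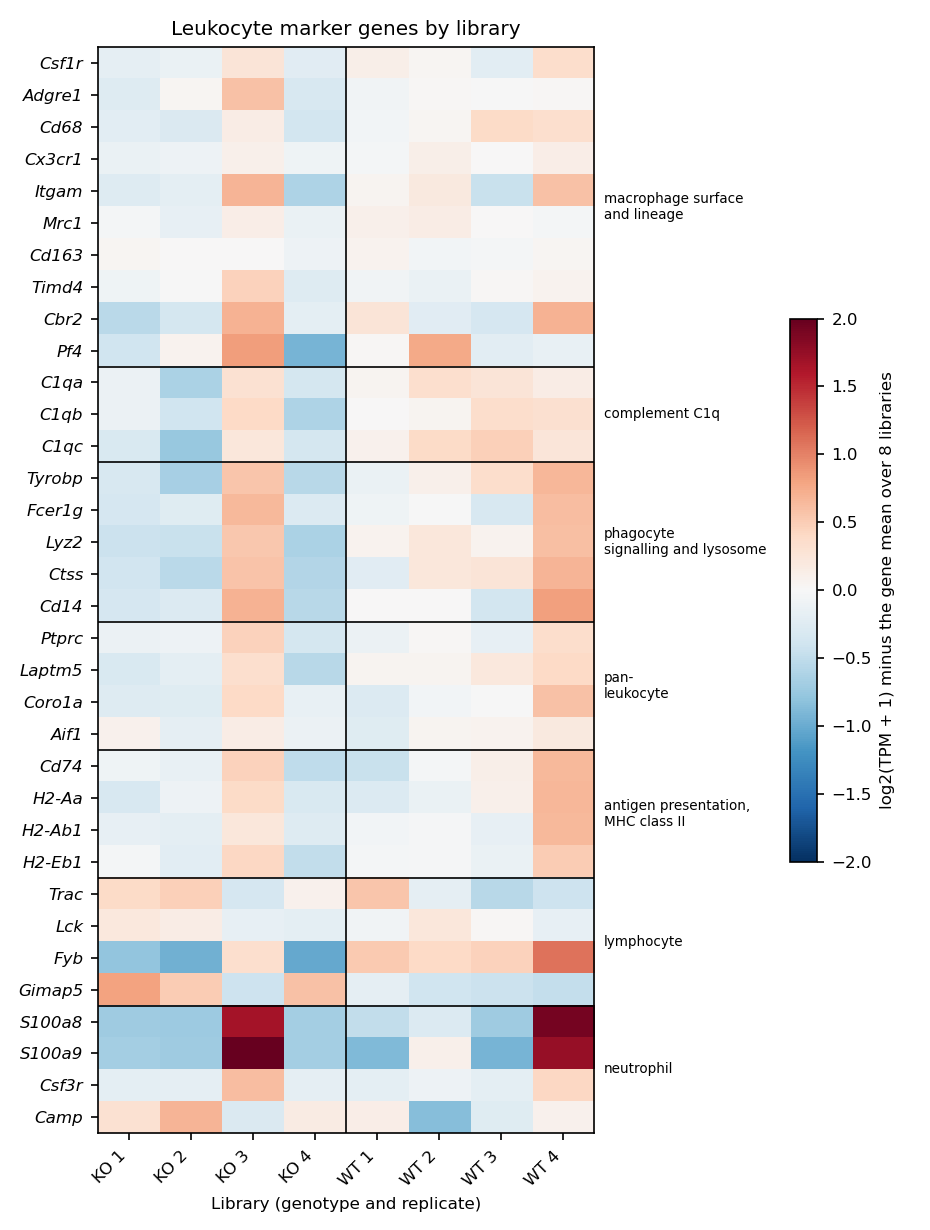
Each row is a member gene and each column a library, coloured by log2(TPM + 1) minus the gene's mean over the 8 libraries, with red above and blue below the mean; lines part the roles and the genotypes. PGR-A KO replicate 3 and WT replicate 4 are red for most rows and darkest for S100a8 and S100a9, while Trac, Gimap5 and Camp do not follow them.

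The question the design puts to these genes is whether their transcripts differ between granulosa preparations of PGR-A KO and WT mice. Most members had a lower mean in PGR-A KO, and none passed the test adjusted over all genes. The filter of at least 1 TPM in at least 4 libraries left 29 of the 34 members to test; Cx3cr1, Cd163, Ptprc, Aif1 and Csf3r were too low. By limma, 0 of the 29 passed an adjusted p of 0.05 over all genes, where 0.0138% of genes passed, and 4 had an unadjusted p under 0.05, against 6.31% of genes. Of these, C1qc, Cd68 and Fyb were lower in PGR-A KO, as were 5.33% of genes at that threshold, and Gimap5 was higher, as were 0.974%. The log2(TPM + 1) change was below 0 for 23 members (79.3%) and above 0 for 6, against 57.4% of all genes below 0. The median change of the members was -0.19, and that of all genes -0.02. Only Fyb had groups that did not overlap, against 3.42% of genes in either direction and 2.82% with PGR-A KO the lower. In bulk RNA, fewer leukocytes and less of these transcripts per leukocyte cannot be told apart.

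Leaving out a library changed these counts. Without WT replicate 4, 17 of 28 tested members had a lower mean. Without PGR-A KO replicate 3, Fyb and Gimap5 passed (limma adjusted p = 0.0499 for each, where 0.042% of genes passed), and the median became -0.39. In that fit Fyb met the filter only through the 4 WT libraries. Its remaining PGR-A KO values were 0.985, 0.758 and 0.686 TPM. With PGR-A KO replicate 3 and WT replicate 4 both left out, 0 members passed by limma and 10 of 27 had an unadjusted p under 0.05, against 7.57% of genes. Fyb and S100a8 were under the filter in this fit and in the next, so neither was tested there. Without WT replicate 1 and PGR-A KO replicate 3, a pair picked because earlier results placed each among libraries of the opposite genotype, 9 members passed (C1qa, C1qb, C1qc, Cd68, Ctss, Lyz2 and Tyrobp lower, Gimap5 and Trac higher), as did 8.01% of all genes. A count from libraries picked by their values is no measure of the genotype.

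**Figure D2:**
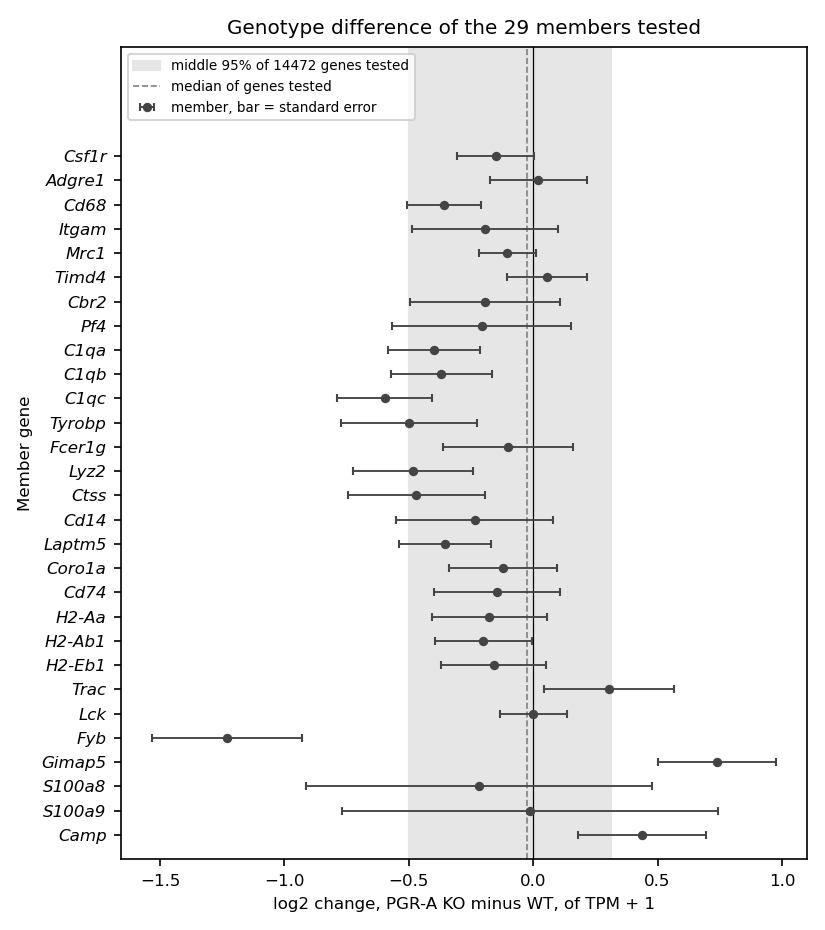
Points show the log2(TPM + 1) change of each of the 29 tested members, PGR-A KO minus WT, with bars of 1 standard error; the grey band holds the middle 95% of the 14472 genes tested and the dashed line is their median. Fyb lies farthest to the left at -1.23 and Gimap5 farthest to the right at 0.74.

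Among the macrophage surface and lineage genes, 6 of 8 tested members had a lower mean in PGR-A KO and 0 passed by limma; Cd68 had an unadjusted p under 0.05. Csf1r, the receptor for the growth factors CSF1 and IL-34 on which macrophages depend (mm10 chromosome 18, 61100598 to 61132149), stood at 1.88, 1.97, 2.89 and 1.78 TPM in PGR-A KO and at 2.54, 2.37, 1.84 and 3.15 TPM in WT. The groups overlapped, and the log2 change was -0.15 (SE 0.16, limma adjusted p = 0.907). On the opposite strand 873 bases of Csf1r overlap Hmgxb3, listed at 13.8 to 17.6 TPM, and the strand setting of the counting is not known, so the level of Csf1r is uncertain. Adgre1, which encodes the F4/80 antigen, had 1.02, 1.49, 2.64 and 0.933 TPM in PGR-A KO and 1.30, 1.47, 1.40 and 1.46 TPM in WT. Its 4 WT libraries were nearly equal, while the PGR-A KO libraries lay on both sides of them.

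Cd68, a lysosomal glycoprotein of macrophages (chromosome 11, 69664213 to 69666153), held 4.81, 4.47, 6.46 and 4.21 TPM in PGR-A KO and 5.46, 5.92, 7.76 and 7.50 TPM in WT. Only PGR-A KO replicate 3 reached into the WT range. The means were 4.99 ± 1.01 and 6.66 ± 1.14 TPM (SD, n = 4), and the log2 change of -0.36 (SE 0.15) had an unadjusted limma p of 0.0388 and an adjusted p of 0.783. The exact permutation p was 0.0857, where the smallest that 4 against 4 libraries can give is 0.0286.

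Itgam, the CD11b integrin chain of monocytes, macrophages and neutrophils (chromosome 7, 128062640 to 128118491), stood at 1.43, 1.56, 3.66 and 0.913 TPM in PGR-A KO and at 2.04, 2.34, 1.15 and 3.36 TPM in WT. Its highest and lowest libraries were both PGR-A KO, with a log2 change of -0.19 (SE 0.29, limma adjusted p = 0.940). Itgam shares 99.9% of 3453 bases with Gm49368, which was listed at 0 to 0.35 TPM. Markers of resident tissue macrophages also overlapped between the genotypes. Cbr2, a carbonyl reductase, was at 3.19, 3.80, 8.90 and 4.36 TPM in PGR-A KO and at 6.27, 4.23, 3.87 and 8.86 TPM in WT. Timd4, a receptor for phosphatidylserine on dying cells, lay between 0.769 and 1.91 TPM and was highest in PGR-A KO replicate 3. Mrc1, the mannose receptor, had the smallest fold range of the tested members, 1.38 to 1.96 TPM. Cx3cr1, the fractalkine receptor, reached 0.649 TPM, and Cd163, a haemoglobin scavenger receptor, 0.207 TPM.

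Pf4 encodes a chemokine known from platelets and also made by resident macrophages. It had 3.13, 4.66, 8.68 and 1.85 TPM in PGR-A KO and 4.49, 8.15, 3.69 and 3.87 TPM in WT, with the log2 change at -0.21 (SE 0.36, limma adjusted p = 0.947). The highest Pf4 value was in PGR-A KO replicate 3 and the next in WT replicate 2, so Pf4 did not share the high level of WT replicate 4. Of 8 platelet and megakaryocyte genes, 7 were under the filter: the platelet chemokine Ppbp, which is co-stored with Pf4, reached 0.202 TPM and the platelet receptor subunits Gp1ba and Gp9 0.0516 and 0.0967 TPM. Itga2b, an integrin chain of platelets and megakaryocytes, was at 0.873 to 2.23 TPM.

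The 3 C1q genes encode the chains of 1 secreted protein and lie side by side on chromosome 4 in the order C1qb, C1qc and C1qa, with gaps of 3616 and 2851 bases between annotated genes, all on the minus strand. All 3 had a lower mean in PGR-A KO, and 0 passed by limma. C1qa (136895917 to 136898803) stood at 5.71, 3.67, 8.01 and 4.70 TPM in PGR-A KO and at 6.57, 8.22, 7.69 and 7.05 TPM in WT. C1qb (136880129 to 136886187) had 7.93, 6.33, 11.8 and 5.34 TPM in PGR-A KO and 8.78, 9.11, 11.4 and 11.1 TPM in WT. In both genes PGR-A KO replicate 3 lay within or above the WT libraries and the other 3 PGR-A KO libraries lay below all WT libraries.

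C1qc (136889804 to 136893065) had the largest difference of the 3. Its levels were 4.40, 2.97, 6.80 and 4.25 TPM in PGR-A KO and 6.10, 7.73, 8.31 and 6.96 TPM in WT, which gave means of 4.60 ± 1.60 and 7.27 ± 0.959 TPM (SD, n = 4). The groups overlapped only through PGR-A KO replicate 3 and WT replicate 1. The log2 change of C1qc was -0.60 (SE 0.19), with an unadjusted limma p of 0.0121, an adjusted p of 0.742 and an exact permutation p of 0.0571. The changes of C1qa and C1qb were -0.40 (SE 0.19) and -0.37 (SE 0.20), with limma adjusted p of 0.786 and 0.801.

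The proportions of the chains varied less than their levels, which ranged 2.21-fold to 2.80-fold. The level of C1qb over that of C1qa lay between 1.11 and 1.72, and C1qb over C1qc between 1.18 and 2.13. Over the 8 libraries C1qa and C1qc gave r = 0.96 by Pearson (exact permutation p = 0.000471, adjusted over 10 pairs 0.00231) and rho = 0.88 by Spearman (exact permutation p = 0.00724, adjusted 0.0362). Without the 2 libraries farthest from the median, PGR-A KO replicates 2 and 4, r was 0.89. C1qa and C1qb gave r = 0.86 (exact permutation p = 0.00627, adjusted 0.0124) and rho = 0.83 (exact permutation p = 0.0154, adjusted 0.0435), and 0.68 without those libraries. C1qb and C1qc gave r = 0.83 (exact permutation p = 0.0114, adjusted 0.0163) and rho = 0.81 (exact permutation p = 0.0218, adjusted 0.0435), and 0.70 without PGR-A KO replicates 2 and 4. Each C1q gene had a lower mean in PGR-A KO, and r over both genotypes also holds that difference. A single genotype holds 4 libraries, too few for a correlation, so whether these relations hold within WT or PGR-A KO was not tested. Pf4 and C1qa gave r = 0.55 (exact permutation p = 0.159) and rho = 0.52 (exact permutation p = 0.197), which did not pass, and 0.27 without the 2 farthest libraries.

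**Figure D3:**
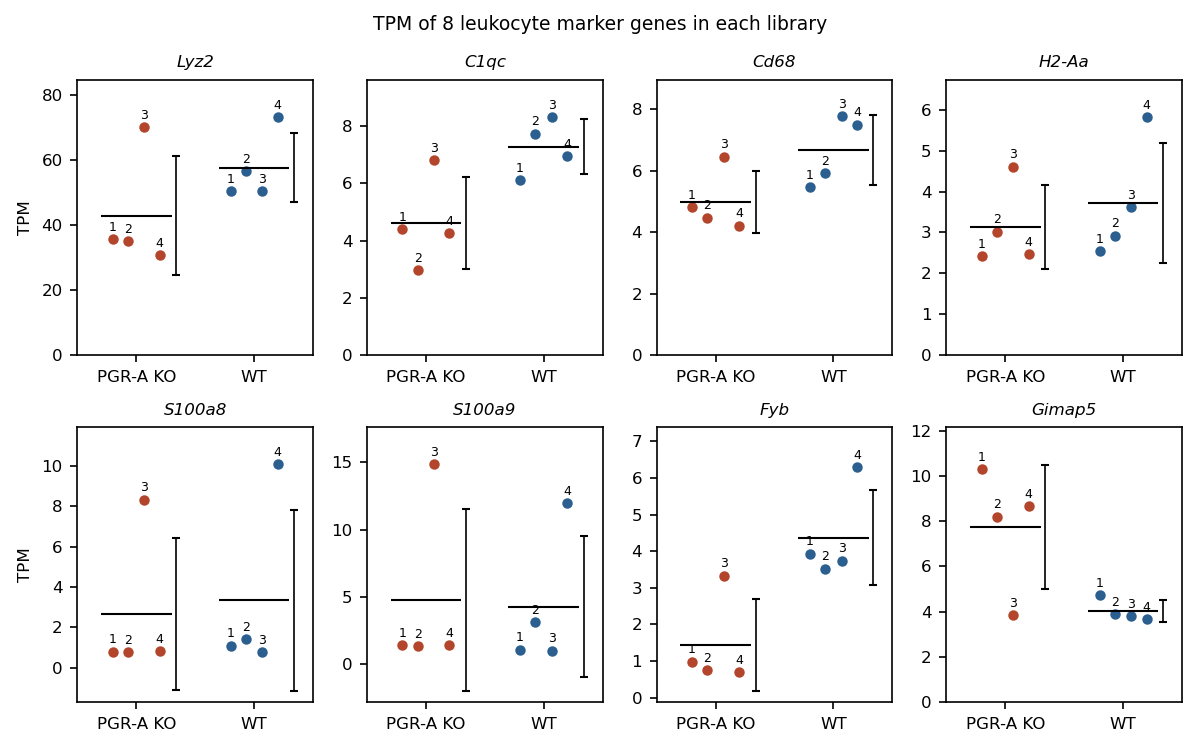
Points are the TPM of 8 members in each library, labelled with the replicate number; horizontal lines are means and bars 1 SD on either side, which for S100a8 and S100a9 reaches below 0. In Lyz2, C1qc, Cd68 and Fyb the PGR-A KO libraries other than replicate 3 lie below every WT library, and in S100a8 and S100a9 PGR-A KO replicate 3 and WT replicate 4 stand far above the rest.

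All 5 phagocyte signalling and lysosomal genes had their lower mean in PGR-A KO; 0 passed by limma or had an unadjusted p under 0.05. Lyz2, the lysozyme of macrophages and neutrophils and the most abundant member (chromosome 10, 117277331 to 117282321), stood at 35.6, 35.1, 70.3 and 30.7 TPM in PGR-A KO and at 50.6, 56.7, 50.5 and 73.2 TPM in WT. The value of PGR-A KO replicate 3 was nearly at the level of the highest WT library, and the other 3 PGR-A KO libraries were below all WT libraries. For Lyz2 the log2 change came to -0.48 (SE 0.24, limma adjusted p = 0.795), and to -0.74 without PGR-A KO replicate 3 (limma adjusted p = 0.202). Lyz2 shares 95.8% of 1264 bases with its neighbour Lyz1, which was listed at 0.563 to 1.63 TPM, so the division of reads between these copies is uncertain.

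Tyrobp encodes DAP12, an adaptor that signals for activating receptors of myeloid and NK cells (chromosome 7, 30413760 to 30417585). It had 6.01, 4.50, 11.8 and 4.95 TPM in PGR-A KO and 7.03, 8.40, 10.2 and 12.9 TPM in WT. Fcer1g, the signalling chain shared by Fc receptors, had 4.87, 5.26, 10.7 and 5.15 TPM in PGR-A KO and 5.99, 6.39, 4.96 and 10.4 TPM in WT. The log2 change of Tyrobp was -0.50 (SE 0.27, limma adjusted p = 0.796) and that of Fcer1g -0.10 (SE 0.26, limma adjusted p = 0.961). WT replicate 3 was high for Tyrobp and low for Fcer1g, and the level of Tyrobp over Fcer1g there was 2.05, against 0.855 to 1.31 in the other 7 libraries. Tyrobp and Fcer1g gave r = 0.76 (exact permutation p = 0.0258, adjusted 0.0323) and rho = 0.60 (exact permutation p = 0.132, adjusted 0.147), and 0.66 without WT replicate 4 and PGR-A KO replicate 2.

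Ctss, a lysosomal protease that trims the class II invariant chain (chromosome 3, 95526786 to 95556403), was at 3.66, 3.16, 7.94 and 3.04 TPM in PGR-A KO and at 4.20, 6.08, 6.22 and 8.68 TPM in WT (log2 change -0.47, SE 0.27, limma adjusted p = 0.808). Cd14, the lipopolysaccharide co-receptor, was at 1.83, 1.97, 4.81 and 1.45 TPM in PGR-A KO and at 2.61, 2.61, 1.77 and 5.33 TPM in WT. In both genes the highest library of each genotype was PGR-A KO replicate 3 or WT replicate 4. Without these 2 libraries the log2 change was -0.59 for Ctss and -0.27 for Cd14 (limma adjusted p = 0.604 and 0.713).

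Members grouped as genes of leukocytes in general lay between 0.313 and 5.86 TPM. Ptprc, which encodes the leukocyte phosphatase CD45, stood at 0.704, 0.710, 1.55 and 0.448 TPM in PGR-A KO and at 0.709, 0.881, 0.645 and 1.36 TPM in WT, under the filter. Laptm5, a lysosomal membrane protein of blood cells, stood at 3.25, 3.55, 5.62 and 2.56 TPM in PGR-A KO and at 4.40, 4.39, 5.06 and 5.86 TPM in WT. Laptm5 overlapped between the genotypes only through PGR-A KO replicate 3 (log2 change -0.35, SE 0.18, limma adjusted p = 0.796). Coro1a, an actin-binding protein of leukocytes, was at 1.97, 1.99, 3.68 and 2.18 TPM in PGR-A KO and at 1.92, 2.39, 2.51 and 4.34 TPM in WT. Aif1, known as IBA1 in macrophages, lay between 0.313 and 0.776 TPM.

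The 4 class II genes had their lower mean in PGR-A KO; 0 passed by limma, and none had an unadjusted p under 0.05. Cd74, the invariant chain that guides class II proteins through the cell, was the most abundant, at 8.50, 8.11, 12.9 and 6.10 TPM in PGR-A KO and 6.45, 8.88, 9.97 and 14.8 TPM in WT. H2-Aa, an alpha chain (chromosome 17, 34282744 to 34287823), was at 2.43, 3.02, 4.61 and 2.47 TPM in PGR-A KO and at 2.54, 2.92, 3.62 and 5.82 TPM in WT. H2-Ab1, the beta chain that pairs with it, was at 3.27, 3.19, 4.61 and 3.00 TPM in PGR-A KO and at 3.59, 3.71, 3.28 and 6.54 TPM in WT. The other beta chain gene, H2-Eb1 (chromosome 17, 34305867 to 34316674), was at 2.93, 2.47, 4.37 and 1.87 TPM in PGR-A KO and at 2.91, 2.97, 2.67 and 4.74 TPM in WT. In all 4 genes the highest library was WT replicate 4 and the next PGR-A KO replicate 3. The log2 changes lay between -0.20 and -0.15, with limma adjusted p from 0.901 to 0.947, and the genotypes overlapped in each of the 4 genes.

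Class II genes moved together over the libraries, in part through those 2 libraries. H2-Ab1 and H2-Eb1 gave r = 0.91 (exact permutation p = 0.000149, adjusted 0.00149) and rho = 0.93 (exact permutation p = 0.00223, adjusted 0.0223), and 0.83 without WT replicate 4 and PGR-A KO replicate 3. H2-Aa and Cd74 gave r = 0.94 (exact permutation p = 0.000694, adjusted 0.00231) and rho = 0.81 (exact permutation p = 0.0218, adjusted 0.0435), and 0.74 without the same libraries. H2-Aa and H2-Ab1 gave r = 0.89 (exact permutation p = 0.00744, adjusted 0.0124) and rho = 0.69 (exact permutation p = 0.0694, adjusted 0.0991), but r = 0.090 without them, so this relation rests on those 2 libraries. Csf1r and Adgre1 gave r = 0.63 (exact permutation p = 0.0806, adjusted 0.0895) and rho = 0.60 (exact permutation p = 0.132, adjusted 0.147), which did not pass, and 0.47 without the same libraries.

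Of 12 other genes of the class II pathway, 5 were tested, 1 with a higher and 4 with a lower mean in PGR-A KO, and 0 passed by limma, 0 of them at an unadjusted p under 0.05. Ciita, the coactivator on which the X and Y box promoters depend, was at 0.0381 to 0.0934 TPM, beside 1.87 to 6.54 TPM of the class II chains. The RFX subunit genes Rfx5, Rfxap and Rfxank were at 9.58 to 28.4 TPM. Ctsl, a lysosomal protease also made by granulosa cells, was the most abundant of them, at 3466 to 6318 TPM. Of 8 class I genes 7 (87.5%) had a lower mean in PGR-A KO, against 57.4% of all genes, and 0 passed by limma. Beside 6.31% of all genes, 2 of the 8 had an unadjusted limma p under 0.05. These were H2-D1, a classical class I heavy chain, at 81.3 ± 5.42 TPM in PGR-A KO and 96.2 ± 5.15 TPM in WT (SD, n = 4; limma adjusted p = 0.721), and H2-T23, a non-classical one, at 18.3 ± 1.14 and 24.9 ± 4.36 TPM (SD, n = 4; limma adjusted p = 0.721). The class I light chain gene B2m was at 285 to 347 TPM.

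The 4 lymphocyte genes did not share a direction or an order of libraries. Fyb encodes ADAP, an adaptor of T cells that is also made by myeloid cells and platelets (chromosome 15, 6522853 to 6663313). It stood at 0.985, 0.758, 3.33 and 0.686 TPM in PGR-A KO and at 3.93, 3.52, 3.74 and 6.29 TPM in WT. Every PGR-A KO library lay below every WT library, with PGR-A KO replicate 3 close under the lowest WT value. The means were 1.44 ± 1.27 and 4.37 ± 1.29 TPM (SD, n = 4), a ratio of 3.04 between WT and PGR-A KO. The log2 change was -1.23 (SE 0.30), the exact permutation p 0.0286, the unadjusted limma p 0.00267 and the adjusted p 0.570. The processed pseudogene Gm7666 lies within the span of Fyb on the same strand and was listed at 0 to 5.66 TPM. The longest Fyb transcript held no match to it of 100 bases or more at 95% identity. How reads of that span were assigned is not known.

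Gimap5, a GTPase that keeps resting lymphocytes alive (chromosome 6, 48746197 to 48754210), had the opposite pattern. Its levels were 10.3, 8.19, 3.84 and 8.66 TPM in PGR-A KO and 4.73, 3.89, 3.80 and 3.66 TPM in WT. In replicate 3 of PGR-A KO it lay at the WT level, and in the other 3 PGR-A KO libraries above all WT libraries. The means were 7.74 ± 2.75 and 4.02 ± 0.482 TPM (SD, n = 4), with a log2 change of 0.74 (SE 0.24, unadjusted limma p = 0.0122, adjusted p = 0.743, exact permutation p = 0.0857). The protein-coding gene Gm28053 overlaps 6448 bases of Gimap5 on the same strand and was listed at 0 to 0.620 TPM. The longest Gimap5 transcript held no match to Gm28053 of 100 bases or more at 95% identity, and how reads were divided between these genes is not known.

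Trac, the constant part of the T cell receptor alpha chain, was at 4.92, 5.34, 2.61 and 3.82 TPM in PGR-A KO and at 5.67, 3.00, 2.11 and 2.40 TPM in WT (log2 change 0.30, SE 0.26, limma adjusted p = 0.883). Lck, the kinase that starts T cell receptor signalling, was at 4.53, 4.31, 3.30 and 3.19 TPM in PGR-A KO and at 3.54, 4.58, 3.87 and 3.28 TPM in WT, with nearly equal means of 3.83 ± 0.684 and 3.82 ± 0.563 TPM (SD, n = 4). Neither Trac nor Lck was raised in PGR-A KO replicate 3 or WT replicate 4. The CD3 chains, without which no T cell receptor reaches the surface, were near 0: Cd3d reached 0.203 TPM, Cd3e 0.103 TPM and Cd3g 0.195 TPM. The beta chain constant gene Trbc2 was at 4.34 to 11.8 TPM and its copy Trbc1 at 0.0848 to 0.568 TPM. Of 16 other T cell genes 2 were tested (Trbc2 and Skap1), both with higher means in PGR-A KO, and 0 passed by limma or at an unadjusted p under 0.05. Levels of Trac, Lck and Gimap5 therefore stood beside CD3 levels near 0, and whether T cells carried them was not tested.

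**Figure D4:**
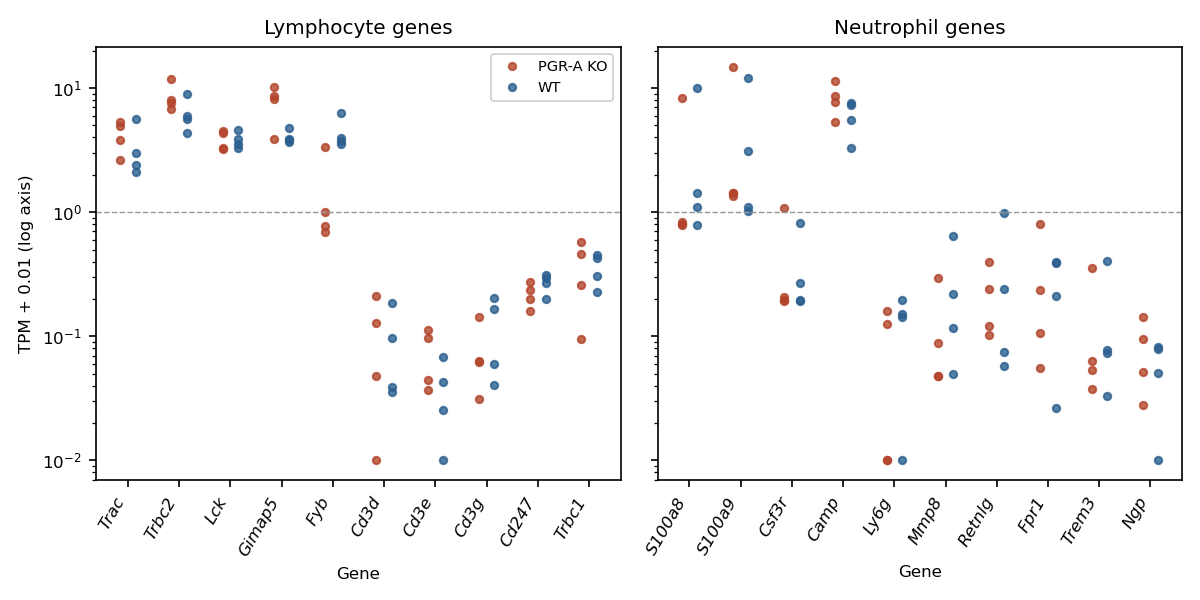
Points are single libraries of PGR-A KO (red) and WT (blue) on a log axis of TPM + 0.01, with the filter of 1 TPM as a dashed line; the left panel holds lymphocyte genes and the right panel neutrophil genes. Trac, Trbc2, Lck and Gimap5 lie above 1 TPM in all libraries and Cd3d, Cd3e, Cd3g, Cd247 and Trbc1 below it, and S100a8, S100a9 and Csf3r each have 1 library per genotype far above the others.

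In the neutrophil genes S100a8, S100a9 and Csf3r the spread within each genotype was larger than the difference between the genotypes. S100a8 and S100a9 encode the calprotectin subunits and lie on chromosome 3 with 22596 bases between them (90668978 to 90670035 and 90692632 to 90695721). S100a8 stood at 0.791, 0.774, 8.32 and 0.830 TPM in PGR-A KO and at 1.08, 1.41, 0.785 and 10.1 TPM in WT. S100a9 stood at 1.41, 1.35, 14.9 and 1.42 TPM in PGR-A KO and at 1.09, 3.12, 1.02 and 11.9 TPM in WT. Replicate 3 of PGR-A KO and replicate 4 of WT formed a group of their own in both genes, so no correlation over all libraries is given. The level of S100a9 over that of S100a8 lay between 1.00 and 2.20. The log2 changes were -0.22 (SE 0.70) and -0.01 (SE 0.76), with limma adjusted p of 0.966 and 0.999, and these wide errors leave room for a difference in either direction.

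Csf3r, the receptor for the neutrophil growth factor G-CSF, had 0.182, 0.196, 1.07 and 0.187 TPM in PGR-A KO and 0.185, 0.257, 0.184 and 0.804 TPM in WT, with the same 2 highest libraries as S100a8. Its longest transcript shares stretches of at least 95% identity with transcripts of many other genes. One is a stretch of 137 bases with Mprip, listed at 146 to 179 TPM, so the low level of Csf3r is uncertain. Camp, the cathelicidin antimicrobial peptide of neutrophil granules and epithelia (chromosome 9, 109847379 to 109849617), had 8.61, 11.5, 5.33 and 7.74 TPM in PGR-A KO and 7.54, 3.28, 5.54 and 7.28 TPM in WT. It did not follow S100a8, with PGR-A KO replicate 3 the lowest of its genotype, with a log2 change of 0.44 (SE 0.26, limma adjusted p = 0.811). Of 16 other neutrophil genes 5 were tested, 3 with a higher and 2 with a lower mean in PGR-A KO; 0 passed by limma or at an unadjusted p under 0.05. Lcn2, a siderophore-binding protein of neutrophils and epithelia, was at 5.14 to 40.0 TPM and highest in PGR-A KO replicate 2. The neutrophil surface gene Ly6g reached 0.186 TPM and the granule genes Mpo, Elane and Ngp 0.246, 0.0639 and 0.134 TPM. The neutrophil collagenase Mmp8 was under 1 TPM throughout but 4.82-fold and 10.8-fold above the median of the other 6 libraries in PGR-A KO replicate 3 and WT replicate 4.

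**Figure D5:**
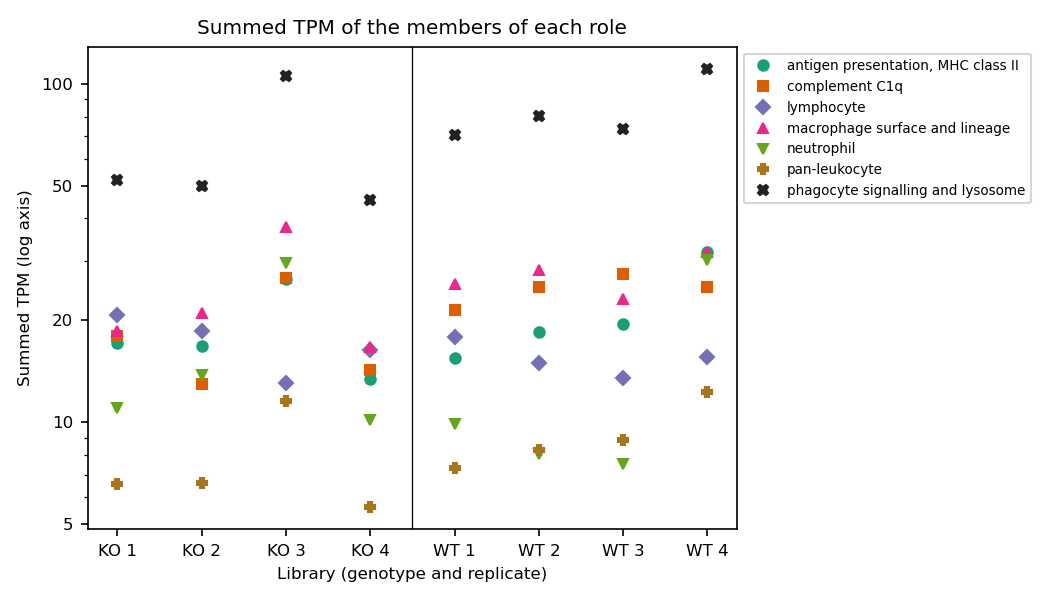
Points are the summed TPM of the members of each role in each library, on a log axis, with a line between PGR-A KO and WT. The phagocyte sum ranges from 45.3 to 110.6 TPM and the neutrophil sum from 7.53 to 30.1 TPM, both highest in WT replicate 4 and next in PGR-A KO replicate 3, while the lymphocyte sum is lowest in PGR-A KO replicate 3.

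Summed by role, the C1q and phagocyte genes had the lowest ratios of PGR-A KO to WT, in an order that turned when some libraries were left out. The C1q sum was 18.0 ± 6.16 TPM in PGR-A KO and 24.7 ± 2.45 TPM in WT (SD, n = 4), a ratio of 0.727, and the ratio of phagocyte genes was 0.755. Without PGR-A KO replicate 3 these ratios were 0.610 and 0.586, and without WT replicate 3 0.754 and 0.726. The ratio was 0.826 for genes of leukocytes in general, 0.864 for class II genes and 0.866 for macrophage surface genes. Lymphocyte genes had a ratio of 1.11, which became 0.968 with the geometric mean of the genes in place of the sum, and neutrophil genes a ratio of 1.16. The neutrophil ratio was 1.90 without WT replicate 4 and 0.839 without PGR-A KO replicate 3, and the class II ratio 1.03 without WT replicate 4. Over all members the sum was 164.1 ± 58.5 TPM in PGR-A KO and 195.6 ± 41.7 TPM in WT (SD, n = 4), a difference within the spread of either genotype.

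Most other macrophage genes also had a lower mean in PGR-A KO. Of 40 such genes 23 were tested, 4 with higher and 19 (82.6%) with lower means in PGR-A KO, against 57.4% of all genes lower. Their median log2 change was -0.14, and that of all genes -0.02. By limma 0 passed, and beside 6.31% of all genes 2 had an unadjusted p under 0.05. One of them was Csf2ra, the GM-CSF receptor alpha chain and most abundant of the list, at 23 ± 4.17 TPM in PGR-A KO and 28.5 ± 2.00 TPM in WT (SD, n = 4; limma adjusted p = 0.783). Spi1, which encodes PU.1, was at 0.868 to 1.86 TPM. The 5 tested growth factors and chemoattractants of macrophages had 3 higher and 2 lower means, and 0 passed by limma or at an unadjusted p under 0.05. The CSF1R ligands Csf1 and Il34 were at 3.21 to 5.34 and 3.71 to 10.2 TPM, and the CX3CR1 ligand Cx3cl1 at 15.5 to 24.5 TPM.

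Of 14 further complement genes 11 were tested, 3 with a higher and 8 (72.7%) with a lower mean in PGR-A KO, against 57.4% of all genes lower. By limma 0 passed, and 0 had an unadjusted p under 0.05. C3, on which the pathways converge, was at 8.59 to 21.1 TPM. For other leukocytes few genes passed the filter: 2 of 9 dendritic cell genes (Zbtb46 highest at 5.52 TPM on average), 2 of 9 NK cell genes (Klrb1c, 3.64 TPM), 3 of 8 B cell genes (Ighm, 3.87 TPM), 1 of 8 mast cell genes (Hdc, 39.5 TPM) and 0 of 6 eosinophil genes (Ear2, 0.604 TPM). None of these 8 tested genes passed by limma, and 0 had an unadjusted p under 0.05.

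Markers of other cells leaned one way or the other, and their part in the member values was not tested. By limma 0 of the granulosa, oocyte, blood endothelial, erythroid and surface epithelium markers passed. Only 1 of them (Krt8) had an unadjusted limma p under 0.05, beside 6.31% of all genes. Of all genes, 57.4% had a lower mean in PGR-A KO. Granulosa markers had a lower mean in PGR-A KO in 9 of 10 genes, with a summed level of 5029 to 6394 TPM in PGR-A KO and 5053 to 8319 TPM in WT. Oocyte markers had a higher mean in 8 of 8, with sums of 673 to 1216 and 486 to 935 TPM. Blood endothelial markers had a lower mean in 6 of 8, with sums of 26.5 to 45.6 and 33.7 to 64.2 TPM. Erythroid markers had a higher mean of log2(TPM + 1) in 5 of 5, with sums of 3660 to 6318 and 1732 to 11369 TPM, and surface epithelium markers a lower mean in 9 of 9, with sums of 89.7 to 98.3 and 88.1 to 123.8 TPM. Lyve1, a hyaluronan receptor of lymphatic vessels and of some resident macrophages, fell from 127 to 267 TPM in WT to 18.8 to 35.6 TPM in PGR-A KO (log2 change -2.81, SE 0.25, limma adjusted p = 0.00919). The call was lost when replicate 2 or 4 of PGR-A KO or replicate 2 of WT was left out, or with no filter (limma adjusted p at most 0.0812). The lowest WT library for Lyve1 was replicate 4, the library with the highest sum of leukocyte members. In PGR-A KO the order was the reverse: Lyve1 was highest, at 35.6 TPM, in replicate 3, which had the highest member sum of that genotype. The other resident macrophage markers Cbr2, Timd4, Mrc1 and Pf4 had log2 changes between -0.21 and 0.05. Which cells carried Lyve1 was not tested.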

How the data were processed

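Granulosa cell RNA of 4 PGR-A KO and 4 WT libraries was measured by paired-end sequencing of stranded mRNA libraries, per the labels' protocols. The authors deposited 1 table of TPM per gene symbol. Tools named in the submitters' processing notes, with no role or version, are Salmon, FastQC, edgeR and limma, and the build is mm10; how genes were annotated and summed is not given there. TPM does not keep the sequencing depth, which is unknown, and counting intervals could not be given. Groups and replicate numbers came from the sample titles. The members and lists were chosen with earlier results of these data known.

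In R 4.3.3, limma 3.58.1 (intensity trend, no covariate) was fitted to log2(TPM + 1) of the 14472 genes that reached 1 TPM in 4 or more of the 8 libraries. Tests were 2-sided, with Benjamini-Hochberg adjustment over all genes and a threshold of 0.05. Changes are PGR-A KO minus WT and understate those of low genes. For single members an exact permutation test, also 2-sided, ran over the 70 assignments of libraries. Correlations are of log2(TPM + 1). The named genes are all members, the most abundant and any passing gene of each further list, Lyve1, and the 8 genes most like the macrophage and C1q members; other names were chosen after their values were seen, and 2 genes that the rule or a count would name are not reported here. Positions are from GENCODE M21 (mm10), where all 34 members matched. Promoters are from RefSeq (GRCm38.p6). Shared sequence was searched with BLASTN 2.17.0. Alternatives were other pseudocounts (0.1 and 5), filters, scalings and limma options, a replicate block, and leaving out libraries; 2 pairs of libraries were left out as alternatives chosen after their values were seen. The steps were tested on simulated data.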

Additional observations from a re-analysis of the deposited data

Results flagged for a closer look

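A library stood far from the other 3 of its genotype in 16 of 68 groups of member values, where chance gives about 3.4. In 11 of them it was PGR-A KO replicate 3 and in 5 WT replicate 4, each time above the others. PGR-A KO replicate 3 stood apart in the neutrophil genes S100a8 (8.32 TPM), S100a9 (14.9 TPM) and Csf3r (1.07 TPM), in the phagocyte genes Lyz2 (70.3 TPM), Ctss (7.94 TPM), Fcer1g (10.7 TPM) and Cd14 (4.81 TPM), and in Cx3cr1 (0.616 TPM), Coro1a (3.68 TPM), H2-Ab1 (4.61 TPM) and Fyb (3.33 TPM). WT replicate 4 stood apart in S100a8 (10.1 TPM), Csf3r (0.804 TPM), Fyb (6.29 TPM) and the class II genes H2-Ab1 (6.54 TPM) and H2-Eb1 (4.74 TPM). The members share these libraries, so the flags are not independent of each other, and what sets the libraries apart was not tested.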

How the results depend on the processing

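In each fit of all 8 libraries 0 of the members passed limma's adjusted threshold, and over all genes the 2 calls became 3 with a pseudocount of 0.1 and 1 with a pseudocount of 5. With a library left out, 0 to 2 members and 0 to 6 genes passed. Without the pair of WT replicate 4 and PGR-A KO replicate 3, 1 gene passed, and without the pair of WT replicate 1 and PGR-A KO replicate 3, 9 members and 1131 genes; both pairs were chosen after their values were seen, and the cause was not tested. At an unadjusted p under 0.05 there were 4 members and 913 genes, and the groups did not overlap in 1 member and 495 genes. Members with a lower mean numbered 17 to 24 with a library left out, and 9 of the 10 that a minimum of 5 TPM left to test. TMM factors moved the median of all genes from -0.02 to 0.02 and left 22 of 29 members lower, as did quantile normalization (0.01).

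Of 524 member values under alternatives, 484 kept their direction and side of the threshold, 11 passed it and 29 changed direction. Of these, Adgre1 was -0.0059 and Lck -0.00068 with a pseudocount of 0.1, and S100a9 0.010 with a pseudocount of 5, 0.019 with TMM factors and 0.043 with quantile normalization. Without the first pair Adgre1 was -0.16, Timd4 -0.053 and Lck -0.0024; without the second, Adgre1 was -0.19 and Timd4 -0.10. With 1 library or either pair left out the log2 change ran from -0.19 to 0.13 for Adgre1, -0.10 to 0.15 for Timd4, -0.46 to 0.0045 for Cbr2, -0.61 to 0.066 for Pf4, -0.38 to 0.086 for Fcer1g, -0.39 to 0.056 for Coro1a, -0.49 to 0.044 for Cd74, -0.46 to 0.016 for H2-Aa, -0.068 to 0.073 for Lck and -0.99 to 0.57 for S100a9.

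With the replicate number as a block, 0 members and 2 genes passed, as without it, and 23 members were lower. Libraries of equal number had residual correlations of 0.36, -0.11, 0.39 and -0.29, so the numbers were not taken to pair them. Depth is unknown, and members near 1 TPM are the least certain.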

Other observations

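Genes outside the leukocyte lists varied over the libraries much as the macrophage and C1q members did. The 8 genes of at least 5 TPM with the highest Pearson r to the mean of the 11 tested macrophage and C1q members, out of 10233 ranked over 8 libraries, were Vps50, Lbhd1, Dcxr, Saa3, Pigbos1, Esr1, Cmc4 and Strbp, with r from 0.962 down to 0.897 and no test, since they were picked for r. Saa3, an acute phase serum amyloid gene, had the widest range of them: 14.1, 21.5, 123.5 and 2.58 TPM in PGR-A KO and 34.7, 57.9, 18.0 and 71.4 TPM in WT. Esr1, the oestrogen receptor alpha gene, ranged only from 3.99 to 6.82 TPM. All 8 were highest in PGR-A KO replicate 3 except Pigbos1, and none differed between the genotypes by limma (adjusted p from 0.777 to 0.977).

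Of the monocyte chemoattractants, Ccl2 and Ccl7, picked after their values were seen, were highest in the same pair of libraries, while Ccl8 was highest in WT replicate 3 (0.482 TPM) and Ccl12 had 1.99 TPM in PGR-A KO replicate 3 and 1.13 TPM in WT replicate 4. Ccl2, a ligand of CCR2, was at 0.507, 0.787, 2.70 and 1.04 TPM in PGR-A KO and at 1.07, 0.572, 0.780 and 5.94 TPM in WT, with a limma adjusted p of 0.952. Ccl7, a related ligand, was at 1.36 TPM in PGR-A KO replicate 3 and 2.02 TPM in WT replicate 4, and at 0.183 to 0.777 TPM in the others. Hdc, the histamine-forming enzyme known from mast cells, was at 30.5 to 58.8 TPM while the mast cell protease Cpa3 stayed at or under 0.553 TPM.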
